A study of Mus musculus with 4 samples.

Results

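Heat shock proteins and their DnaJ and BAG co-chaperones are described here in mouse embryonic fibroblasts with and without added mTert, the protein subunit that gives telomerase its catalytic activity. The members were all probe sets of the array whose platform annotation gives a single symbol beginning with Dnaja, Dnajb, Dnajc, Hspa, Hspb, Hspd, Hspe, Hsph, Hsp90 or Bag, a rule that uses no measured value. It took 129 of the 22690 probe sets, for 67 of the 12393 genes with a symbol of their own. Hspbp1, an HSP70 co-chaperone whose symbol starts with Hspb, entered by its spelling. RNA of 4 samples was measured on Affymetrix MOE430A arrays, 1 array per sample. The 2 control samples had received the retroviral vector pBabePuro without an insert, and the 2 mTert samples had received the same vector carrying mTert, so both groups share the viral infection. Age, strain and passage are not given in the sources used here, and nothing says that the 4 samples came from separate cultures, so p-values measure only the spread between these samples.

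Chaperones bind proteins that are unfolded or partly folded and keep them from aggregating. HSP70 proteins do so in cycles of ATP hydrolysis: DnaJ proteins bring clients and stimulate hydrolysis, whereas BAG, HSP110 and HSPBP1 proteins release the nucleotide and with it the client. Small heat shock proteins hold unfolded proteins without ATP, the HSP60 and HSP10 pair forms a folding chamber in mitochondria, and HSP90 acts late on kinases and receptors. In fibroblasts many of these genes are expressed at rest, and heat shock factor 1 raises a cytosolic set of them on proteotoxic stress while the unfolded protein response raises a set of the endoplasmic reticulum.

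The arrays carried the label of their group: the Tert probe set gave signals of 128 and 84.7 in control, where it was called absent, and of 1165 and 845 in mTert, where it was called present, 9.53-fold higher by geometric means. Signal is the deposited linear intensity of a probe set, scaled to 1 trimmed mean on all arrays. By the instrument records, control 1 was hybridised with 5 µg of labelled cRNA and every other array with 15 µg, and between 51.6% and 54.4% of probe sets were called present. The 9 fibroblast markers measured were present on all 4 arrays, with summed signals of 80747 to 85957. Of 16 macrophage markers, 8 were present on control 1 and on mTert 1, and 15 on control 2 and on mTert 2. Their summed signals were 3730 and 4259 on the arrays numbered 1 and 17868 and 18591 on those numbered 2, so they moved with the sample number and not with the group. Epithelial, endothelial and muscle markers (5 genes each) were present for 2 genes at most on any array. In bulk RNA, fewer cells of a type and less RNA per cell cannot be told apart.

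Of the 67 chaperone genes, 52 had a probe set called present on at least 2 arrays and were tested, through 87 probe sets. The brightest tested probe set stood for each gene, and for 48 of the 52 genes it was present on all 4 arrays. The filter left out 10 genes called absent or marginal on every array: Dnajb3, Dnajb7, Dnajb8, Dnajb13, Dnajc5b, Dnajc17, Hspa1l, Hspa2, Hspa12b and Hspb3. It also left out Dnaja4, Dnajc21, Dnajc27, Hspa1a and Hspb2, none of whose probe sets was present on more than 1 array. Hspa1a and Hspa1b are near-identical copies, so signal of their probe sets cannot be assigned to 1 of them with certainty.

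The labels imply 1 comparison, mTert against control, which asks what the added telomerase subunit did to expression. Chaperone signals stood close together in the 2 groups. A log2 difference within 0.1 was found for 27 of the 52 genes (51.9%, against 52.4% of all 7387 genes tested), and 5 genes differed by 0.3 or more (9.62%, against 8.95%). The differences ran from -0.47 for Dnajb1 to 0.36 for Dnajb5 and Hspa4l, with a median of -0.015 against 0.008 over all genes. Dnajb5 and Hspa4l passed the filter on calls only through the mTert arrays, where they were high, so their direction was favoured by the filter. Over the 50 genes present in both groups the highest difference was 0.35, and 3 genes differed by 0.3 or more. By sign, 29 of 52 chaperone genes were lower in mTert, where 47.5% of all genes were. Without control 1 the count was 25 of 52 and the median 0.012. Both arrays of 1 group lay beyond both of the other for 18 of the 52 genes (34.6%, against 25.5% of all genes). Of the 52 genes 7 were apart and higher in mTert, and 11 apart and lower. Over all genes those shares were 13.8% and 11.7%. The difference in shares was not tested. Among the 50 genes present in both groups 5 were apart and higher, and 11 apart and lower.

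No chaperone gene passed the test. limma with Benjamini-Hochberg adjustment at 0.05 called 0% of the 12396 probe sets, Tert included (adjusted p = 0.188), and every chaperone probe set had an adjusted p of 1. With the replicate number as a block, 18 probe sets passed, none of them a chaperone. At an unadjusted limma p under 0.05 stood 2 of 52 chaperone genes, Dnajb1 and Hspa5, both lower, whereas 1.34% of all genes were lower and 0.853% higher at that level. Standard errors of the 52 differences ran from 0.07 to 0.28, with a median of 0.14, so a change of the median gene's size, 0.09, lay within the error of these arrays. The 2 arrays of a group differed by a median of 0.13 on the log2 scale for chaperone genes and by 0.18 for all genes.

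**Figure D1:**
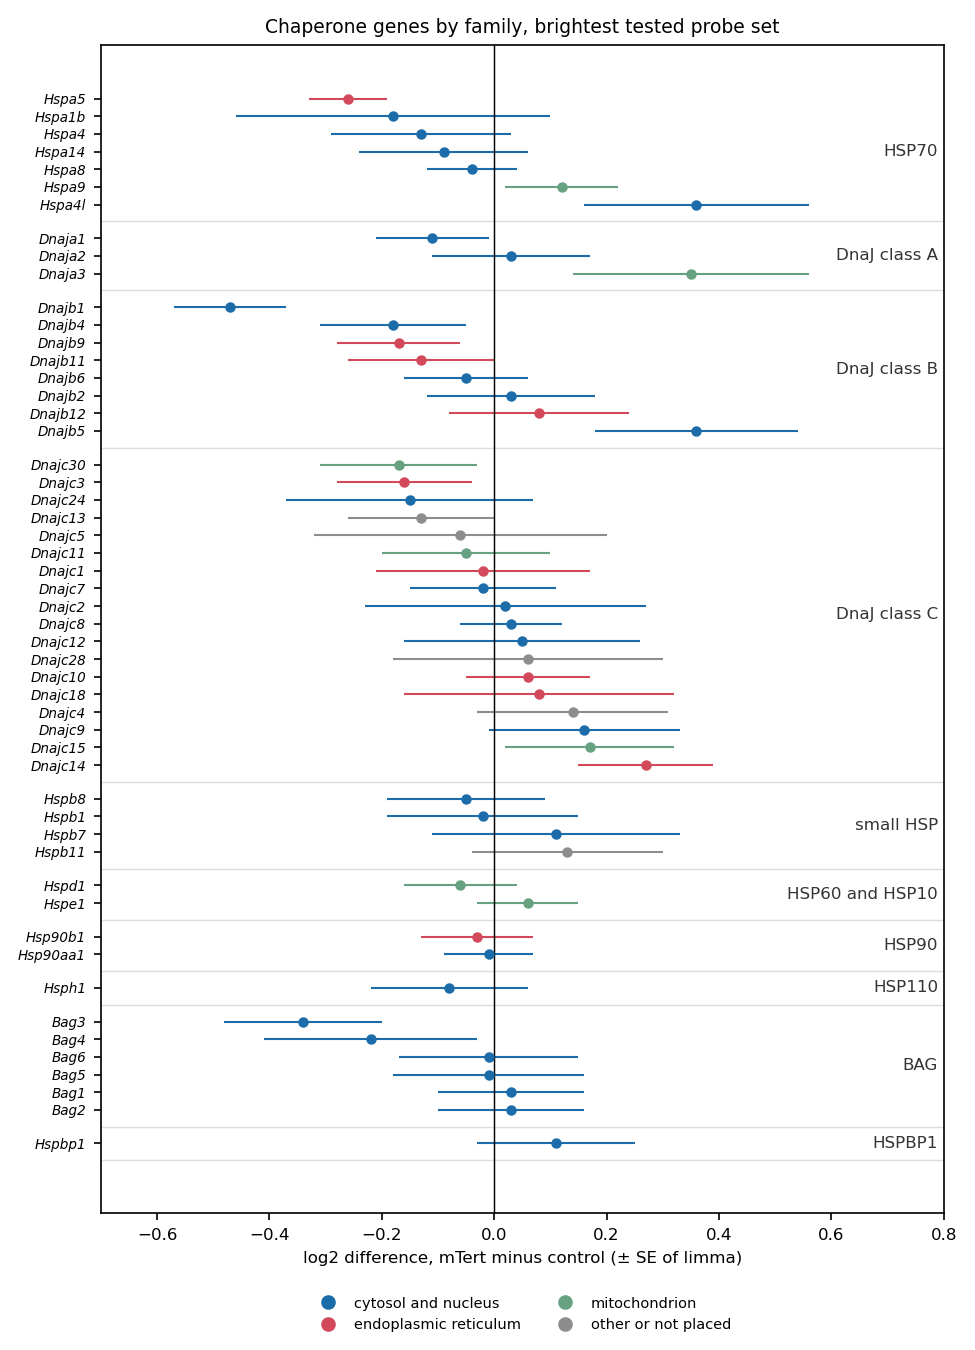
The log2 difference between mTert and control (x axis, mTert minus control) is drawn for the brightest tested probe set of each of the 52 chaperone genes, with bars for the standard error of limma, rows grouped by family and colours for the compartment. Most points lie near 0, and Dnajb1 at -0.47, Bag3 at -0.34 and Hspa5 at -0.26 lie farthest to the left.

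In the HSP70 family 5 of 7 tested genes were lower in sign and 2 were higher, with a median log2 difference of -0.092; without control 1 it was 0.035 with 2 of 7 lower. Hspa5, the HSP70 of the endoplasmic reticulum that also holds the stress sensors there inactive, gave signals of 9756 and 9939 in control and of 8445 and 8024 in mTert. Both mTert arrays lay below both control arrays, at 8234 ± 297 against 9847 ± 129 (SD, n = 2 each). The log2 difference was -0.26 (SE 0.07, limma adjusted p = 1), a level 1.20-fold lower. Its other probe set gave 3885 and 3687 in control and 3390 and 3372 in mTert, again without overlap, at -0.16 (SE 0.09). On the brightest probe set the difference was -0.21 within the arrays numbered 1 and -0.31 within those numbered 2. Where the groups are apart, as here and for Bag3 and Dnajb1 below, the sign of both such differences is fixed in advance. Hspa8, the constitutive cytosolic HSP70, gave 7514 and 6928 in control and 7219 and 6800 in mTert. Those groups overlapped, and the 95% interval of the log2 difference ran from -0.24 to 0.15.

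Hspa1b, the stress-inducible cytosolic HSP70, gave 948 and 523 in control and 657 and 586 in mTert. The high array was control 1 on each of its 3 probe sets, the others giving 909 and 627 there against 473 and 306 on control 2. The log2 difference was -0.18 (SE 0.28), and it was 0.25 without control 1 and -0.61 without control 2. Hspa9, the mitochondrial HSP70, gave 2865 and 2627 in control and 3056 and 2894 in mTert, a difference of 0.12 (SE 0.10) without overlap. A second probe set of Hspa9 gave 1780 and 1740 in control against 1200 and 1806 in mTert, so it was low on mTert 1 alone and stood at -0.26 (SE 0.20). Hspa4l, an HSP110-type relative that exchanges the nucleotide of HSP70, was called present on mTert arrays only, at 167 and 172 against 134 (marginal) and 131 (absent) in control. By the geometric means of the groups it was 1.28-fold higher in mTert. The log2 difference was 0.36 (SE 0.20), with a 95% interval from -0.13 to 0.85 that includes 0. A brighter Hspa4l probe set, called absent on all 4 arrays and not tested, gave 248 and 223 in control and 238 and 196 in mTert.

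Among the other proteins that release nucleotide from HSP70 are those of the BAG family. Bag3, which works with Hspb8 in the selective autophagy of misfolded proteins, gave 1092 and 1082 in control and 945 and 786 in mTert. Both mTert arrays were lower, at 865 ± 113 against 1087 ± 6.84 (SD, n = 2 each), and mTert 2 was the lowest. The log2 difference was -0.34 (SE 0.14, limma adjusted p = 1), and it was -0.20 without mTert 2 and -0.47 without mTert 1. Within the arrays numbered 1 it was -0.21, and within those numbered 2 it was -0.46. Over the 6 BAG genes 4 were lower in sign, with a median of -0.011 that was 0.086 without control 1. Bag4 gave 285 and 364 against 266 and 288, with overlap, and Bag2 gave 657 and 637 against 644 and 682. Hspbp1 gave 435 and 466 in control and 497 and 476 in mTert, higher without overlap at 0.11 (SE 0.14). Hsph1, the HSP110 of the cytosol, overlapped at 1230 and 1056 against 1014 and 1144, and its 2 probe sets stood at -0.08 and 0.06.

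The DnaJ proteins, which bring clients to HSP70, made up 29 of the 52 tested genes. Dnajb1, the main stress-inducible class B member of the cytosol, had the largest difference of any chaperone gene on the brightest probe sets. Its brightest probe set gave 2361 and 2282 in control and 1597 and 1749 in mTert. The second gave 1624 and 1704 in control and 1183 and 1191 in mTert. On both, the 2 mTert arrays lay below the 2 control arrays by several times the spread within a group, with means of 1673 ± 107 against 2321 ± 56.4 (SD, n = 2 each) on the brightest. The log2 differences were -0.47 (SE 0.10, 95% interval -0.73 to -0.22) and -0.49 (SE 0.11), or 1.39-fold and 1.40-fold lower, each with a limma adjusted p of 1. Within the arrays numbered 1, where fewer macrophage markers were present, the difference was -0.56, and within those numbered 2 it was -0.38.

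**Figure D2:**
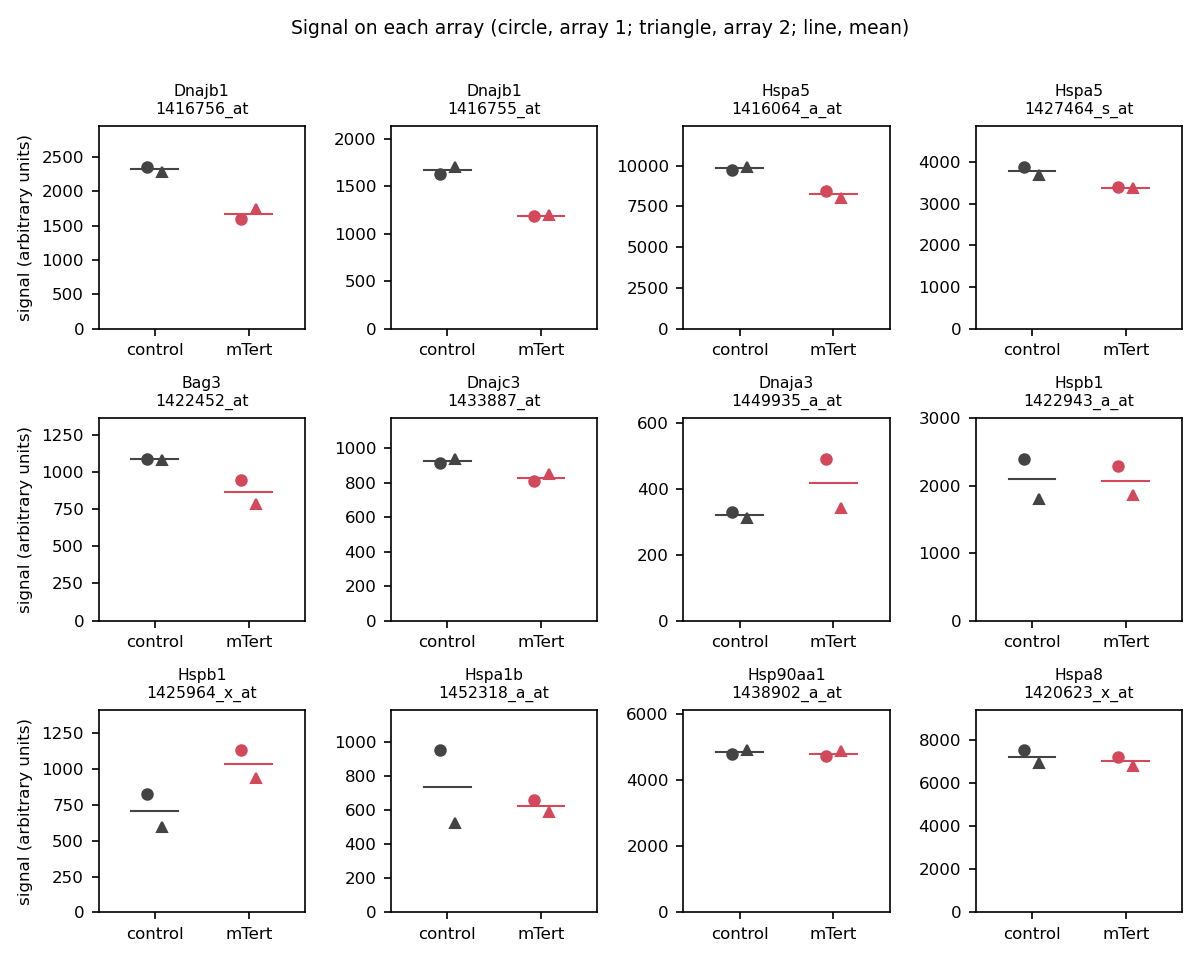
Signal in arbitrary units (y axis, from 0) is plotted on each array for 12 probe sets of 9 chaperone genes, with a circle for the array numbered 1, a triangle for that numbered 2 and a line for the group mean. The mTert points lie below the control points for Dnajb1, Hspa5, Bag3 and Dnajc3, whereas the 2 probe sets of Hspb1 disagree and the spread of Hspa1b is set by control 1.

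Other class B members did not share the size of that difference. Dnajb4, also of the cytosol, gave 1179 and 1188 in control and 972 and 1124 in mTert, lower without overlap at -0.18 (SE 0.13). Its other probe set gave 535 and 488 against 429 and 528, with overlap at -0.10 (SE 0.17). Dnajb5 was called present on mTert arrays only, with 354 and 292 against 257 and 246 in control. By the geometric means of the groups it was 1.28-fold higher in mTert. The 95% interval of its log2 difference of 0.36 (SE 0.18) ran from -0.08 to 0.79 and included 0. Over the 8 tested class B genes 5 were lower in sign, with a median of -0.088 that was 0.000 without control 1. In class A, the type most like bacterial DnaJ, the 3 tested genes went both ways. Dnaja1, a cytosolic partner of HSP70, gave 2159 and 2009 against 1874 and 2000, and on its other probe set 2101 and 2035 against 1707 and 1847. Both were lower in mTert without overlap, at -0.11 (SE 0.10) and -0.22 (SE 0.10). Dnaja3, the class A member of mitochondria, gave 329 and 312 in control and 492 and 341 in mTert, with mTert 1 the high array. Its difference was 0.35 (SE 0.21) and was 0.09 without mTert 1. Dnaja2 gave 792 and 789 against 890 and 733, with overlap.

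Class C, whose members share only the J domain, held 18 tested genes, 10 higher and 8 lower in sign. Their median was 0.025 and their range -0.17 to 0.27. Without control 1 the median was -0.050 with 13 of 18 lower, and without mTert 1 it was -0.009. Dnajc14, a protein of the endoplasmic reticulum membrane, gave 687 and 705 in control and 816 and 861 in mTert. The groups did not overlap and the difference was 0.27 (SE 0.12), but its other 2 probe sets stood at 0.04 and -0.00. Dnajc30 of the mitochondria gave 648 and 587 against 563 and 535, at -0.17 (SE 0.14). Dnajc13, which acts in endosomal sorting, gave 1054 and 1085 against 904 and 1051, at -0.13 (SE 0.13). Both were lower in mTert without overlap. Dnajc4 gave 418 and 364 against 463 and 397, with overlap.

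The chaperones that act without DnaJ partners gave small differences on their brightest probe sets. Of the small heat shock proteins, Hspb1 gave 2402 and 1808 in control and 2286 and 1855 in mTert on its brightest probe set, so both groups were high on the array numbered 1 and the difference was -0.02 (SE 0.17). A second Hspb1 probe set, of the type that can bind related transcripts, gave 822 and 594 against 1128 and 936, higher in mTert without overlap at 0.56 (SE 0.19, limma adjusted p = 1). The 2 probe sets of Hspb1 therefore gave different answers. The brightest probe set of Hspa8 is of the same type as the second one of Hspb1, so that limit is not particular to Hspb1. Hspb8 gave 549 and 572 against 508 and 575, Hspb7 gave 153 and 137 against 170 and 143, and Hspb11, a part of the transport machinery of cilia despite its name, gave 557 and 602 against 558 and 723. All 3 overlapped. Cryab, a small heat shock protein whose symbol is outside the rule, stood at 0.02 (SE 0.19).

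Hspd1, the HSP60 of the mitochondrial chamber, gave 4075 and 3808 against 3992 and 3570, at -0.06 with a 95% interval from -0.30 to 0.18. Hspe1, its HSP10 lid, gave 3410 and 3272 against 3436 and 3540, at 0.06 with an interval from -0.15 to 0.27. The groups overlapped for Hspd1 and were apart, by little, for Hspe1. Hsp90aa1, the inducible HSP90 of the cytosol, gave 4799 and 4903 in control and 4733 and 4883 in mTert. Its difference was -0.01 and the interval ran from -0.20 to 0.18, the groups overlapping. Its other tested probe sets stood at -0.12 (SE 0.11), lower without overlap, and at -0.08 (SE 0.14) with overlap. The HSP90 family held 2 genes here, and Hsp90ab1 was not among the members. Hsp90b1, the HSP90 of the endoplasmic reticulum, gave 3429 and 3258 against 3462 and 3104, at -0.03 with an interval from -0.27 to 0.21.

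By compartment, the 30 tested genes of cytosol and nucleus had 12 higher and 18 lower in sign, with a median of -0.015 that was 0.035 without control 1. Groups were apart for 26.7% of them, near the 25.5% of all genes tested. The 10 of the endoplasmic reticulum had 4 higher and 6 lower, with a median of -0.025. Without control 1 that median was -0.110 with 7 lower. The 7 of the mitochondrion had 4 higher and 3 lower, with a median of 0.063, and the groups were apart for 5 of the 7: Dnaja3, Hspa9 and Hspe1 higher, Dnajc30 and Dnajc11 lower. Over all genes the groups were apart for 25.5%, and with 7 genes that share is not a result about the compartment. With the mean of a gene's probe sets in place of the brightest, the mitochondrial median was -0.051. The 5 genes of other or unplaced location had a median of 0.062, which was -0.112 without control 1. The differences between compartments were not tested.

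**Figure D3:**
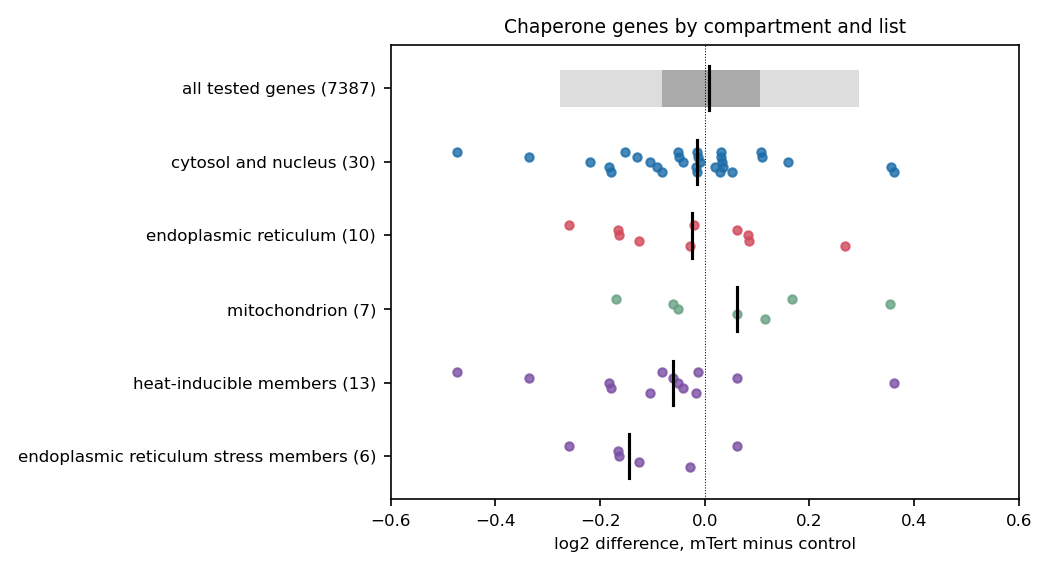
The log2 difference between mTert and control (x axis) is shown per chaperone gene as a point, by compartment and for 2 lists that share genes with the compartments, with black ticks at the medians. The grey bars for all 7387 tested genes span the 5th to 95th percentile (light) and the quartiles (dark), and most chaperone points fall within the light bar.

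The list of heat-inducible members, targets of heat shock factor 1, had 14 genes of which 13 were tested. It was chosen with earlier results of these data known, so its counts are a description and no test. In mTert 11 of the 13 were lower in sign and 2 were higher, Hspe1 and Hspa4l, with a median of -0.061. On the brightest probe sets the groups were apart for Dnajb1, Bag3, Dnajb4 and Dnaja1, all lower, and for the 2 higher genes. Over all genes 11.7% were apart and lower and 13.8% apart and higher. Of the 2 higher genes Hspa4l had passed the filter only through the mTert arrays. Without control 1, the array hybridised with less cRNA and the highest of the 4 for genes such as Hspa1b, Hsph1 and Hspd1, 7 of 13 were lower and the median was -0.013. Without control 1 Dnajb1 stood at -0.45, Bag3 at -0.33, Dnajb4 at -0.18 and Dnaja1 at -0.05. Within the arrays numbered 2 alone 7 of 13 were again lower, with a median of -0.006. The part of the cRNA amount in these values was not tested beyond leaving out control 1. Of the regulators of that response, 1 of 3 was tested: Hsbp1, which binds heat shock factor 1, gave 2233 and 2271 against 2638 and 2409, at 0.16 (SE 0.10).

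Promoter sequence was set beside these values because heat shock factor 1 binds inverted repeats of the unit GAA. RefSeq promoter windows from 250 bases before to 50 after the start (assembly GRCm38.p6) matched 55 of the 67 genes with 70 windows. A pair of units (GAANNTTC or TTCNNGAA, both strands by symmetry) lay in 24.3% of those windows and in 15.1% of all 32851. Of the 11 tested genes with the pair 9 were lower in mTert, with a median of -0.061, and of the 31 matched and tested genes without it 14 were lower, with a median of 0.031. All of those 11 except Dnajb6 and Dnajc10 are also on the heat-inducible list, so both counts rest largely on the same values. Without control 1, 6 of the 11 genes were lower, with a median of -0.003, and 12 of the 31. A triple, the pair with a further unit after 2 more bases in alternating orientation (it holds the pair), lay in 8.57% of the windows, against 0.603% of all, and belonged to Dnajb6, Hspd1, Hspe1 and Hsph1. Of those 4 genes 3 were lower, with a median of -0.055, and without control 1 only 1 was lower, with a median of 0.033. Without mTert 1, and without mTert 2, 2 of the 4 were lower. The promoter of Hspe1 shows the triple and that of Dnajb1 shows none. Hspd1 and Hspe1 lie head to head, so their windows share the same units. The 250 bases before the start follow 5′ to 3′ on the strand of the gene, for Hspe1 from chr1:55087898-55088147 (+ strand, heat shock units in capitals) and for the first of 2 Dnajb1 starts from chr8:83607925-83608174 (+ strand, a CCAAT box read on the opposite strand in capitals).
Hspe1: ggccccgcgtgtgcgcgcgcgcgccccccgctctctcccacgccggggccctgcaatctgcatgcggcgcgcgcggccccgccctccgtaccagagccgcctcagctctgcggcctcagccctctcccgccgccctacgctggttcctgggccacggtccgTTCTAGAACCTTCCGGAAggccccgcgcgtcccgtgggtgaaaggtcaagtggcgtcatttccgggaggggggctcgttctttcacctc
Dnajb1: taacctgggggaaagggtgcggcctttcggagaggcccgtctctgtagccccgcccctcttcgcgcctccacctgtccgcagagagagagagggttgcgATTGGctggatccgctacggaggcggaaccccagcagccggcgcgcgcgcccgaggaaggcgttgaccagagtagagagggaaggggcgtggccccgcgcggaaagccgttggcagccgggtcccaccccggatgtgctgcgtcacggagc

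The windows of Dnajb1, itself on the heat-inducible list, hold neither the triple nor the pair in these exact letters. The printed genes are examples, and a relation between motif and difference was not tested. A match describes letters in these windows and is not a measured binding site.

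The list of endoplasmic reticulum stress members, also chosen with earlier results of these data known, held 6 genes, all tested. Of these 6 genes 5 were lower in sign in mTert. Their median was -0.145, against -0.015 for all 52 chaperone genes. The list took only symbols under the rule, so it does not stand for the whole stress response of the endoplasmic reticulum. Of 14 tested folding factors of the endoplasmic reticulum outside the symbol rule, described below, 11 were higher in sign and 3 lower, with a median of 0.067. Among the higher were Hyou1 at 0.15, Pdia4 at 0.19 and Pdia6 at 0.10. Hspa5, Dnajb9 and Dnajc3 were apart between groups, all lower, where 11.7% of all genes were. Dnajb9, a regulator of the sensor Ire1, gave 1947 and 2230 in control and 1897 and 1819 in mTert, at -0.17 (SE 0.11). Dnajc3, a co-chaperone of Hspa5 that also inhibits a kinase of translation, gave 917 and 941 against 808 and 850, at -0.16 (SE 0.12). The other 3 tested probe sets of Dnajc3 stood at -0.17, -0.04 and -0.18, so all 4 lay on the lower side. Dnajb11, another Hspa5 partner, gave 894 and 791 against 799 and 743, with overlap at -0.13 (SE 0.13). Dnajc10, a reductase of disulfide bonds, gave 1184 and 1295 against 1286 and 1298, with overlap at 0.06 (SE 0.11), and Hsp90b1 lay at -0.03 as given above. Without mTert 2 the count was 4 of 6 lower with a median of -0.105, and within arrays numbered 1 alone it was 4 of 6 with -0.100. Each of the 6 had a limma adjusted p of 1.

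The endoplasmic reticulum stress element is a split site, CCAAT followed after 9 bases by CCACG, searched on both strands. It lay in 0.119% of all promoter windows and in 4.29% of the chaperone windows, those of Hspa5, Dnajc3 and Hsp90b1. All 3 genes were lower in sign, with a median of -0.165. They are also among the 6 stress members above, so this count reuses the same values. Without control 1, and without mTert 2, 2 of the 3 were lower, with medians of -0.183 and -0.201. Its first part, CCAAT on either strand, lay in 38.6% of chaperone windows and 37.4% of all, and 12 of 15 tested genes with it were lower (9 of 15 without control 1). The 3 promoters are printed because they hold the shared site, in capitals, at chr2:34771840-34772089 (+ strand) for Hspa5, chr14:118937682-118937931 (+ strand) for Dnajc3 and chr10:86705445-86705694 (- strand) for Hsp90b1, each 250 bases before the start read 5′ to 3′ on the strand of the gene.
Hspa5: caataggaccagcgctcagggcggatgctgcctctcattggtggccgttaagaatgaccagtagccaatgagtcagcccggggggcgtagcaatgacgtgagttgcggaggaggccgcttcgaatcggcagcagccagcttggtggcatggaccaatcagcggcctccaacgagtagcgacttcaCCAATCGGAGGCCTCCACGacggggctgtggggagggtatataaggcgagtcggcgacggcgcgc
Dnajc3: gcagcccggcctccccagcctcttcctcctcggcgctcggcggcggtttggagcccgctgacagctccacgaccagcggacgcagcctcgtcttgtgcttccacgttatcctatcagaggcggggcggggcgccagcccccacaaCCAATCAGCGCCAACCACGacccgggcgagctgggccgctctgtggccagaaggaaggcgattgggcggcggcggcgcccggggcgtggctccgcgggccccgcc
Hsp90b1: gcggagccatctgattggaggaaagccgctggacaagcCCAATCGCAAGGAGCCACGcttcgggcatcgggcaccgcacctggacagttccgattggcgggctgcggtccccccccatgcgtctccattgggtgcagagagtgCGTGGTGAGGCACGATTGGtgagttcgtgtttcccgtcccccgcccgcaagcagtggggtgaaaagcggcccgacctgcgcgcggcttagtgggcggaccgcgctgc

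Hsp90b1 held 2 matches, the second on the opposite strand, and Hspa5 and Dnajc3 held 1 each. A relation between the number of matches and the difference was not tested.

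The chaperone genes with several tested probe sets show how far a single probe set can be read. In 13 of those 24 genes all probe sets lay on 1 side of 0, among them Dnajb1, Hspa5, Dnajc3 and Dnaja1. In the other 11 they lay on both: Dnaja2, Dnajb6, Dnajc5, Dnajc14, Dnajc18, Hspa1b, Hspa4, Hspa9, Hspa14, Hspb1 and Hsph1. Of 35 probe sets other than the brightest, 22 had the sign of the brightest and 13 the opposite.

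**Figure D4:**
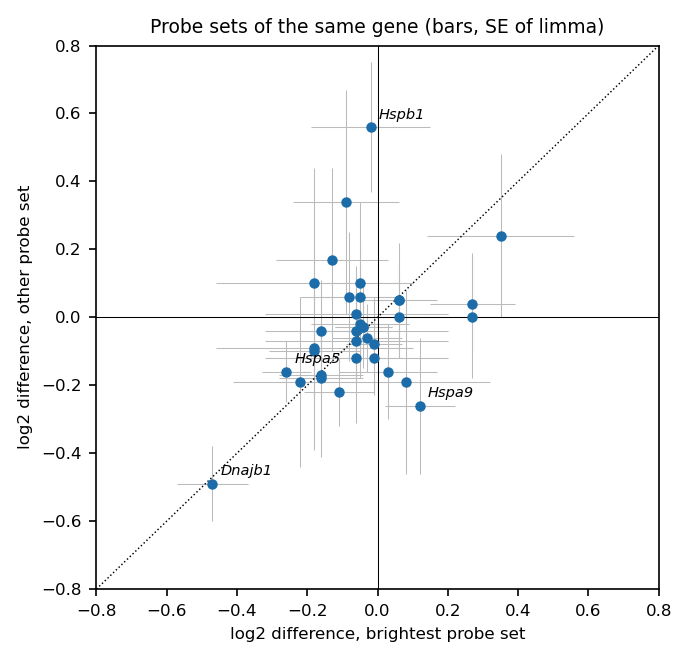
Each point sets the log2 difference (mTert minus control) of a further tested probe set (y axis) against that of the brightest probe set of the same gene (x axis), with bars for the standard errors of limma and a dotted line of equality. Of the 35 points 22 have the same sign on both axes, Dnajb1 lies on the line and Hspb1 lies far above it.

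Other genes of protein folding were taken from lists outside the symbol rule, and 0 of them passed limma's adjusted test in either direction. Of 13 tested co-chaperones of HSP90 and HSP70, 10 were higher in sign, with a median of 0.056. Ahsa1, which stimulates the ATPase of HSP90, was among the lower ones at 1858 and 1787 against 1297 and 1798, low on mTert 1 alone (-0.25, SE 0.17). Cdc37l1, a relative of the kinase adaptor Cdc37, gave 480 and 539 against 560 and 596, higher without overlap at 0.18 (SE 0.14). The 13 subunits of the cytosolic chaperonin and of prefoldin had 5 higher and 8 lower, with a median of -0.022 that was 0.010, with 5 lower, without mTert 1. Their smallest p-values were those of Cct2 and Cct8, whose log2 differences were 0.11 and -0.11.

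Of 14 tested folding factors of the endoplasmic reticulum whose symbols lie outside the rule, 11 were higher in sign, with a median of 0.067. The list includes Hyou1, a relative of HSP70, and Sec63, which carries a J domain. Calr, P4hb and Manf were the lower ones. The count was 8 of 14 without control 2, with a median of 0.018, and 8 of 14 without mTert 1. Pdia4, a disulfide isomerase, gave 871 and 942 in control and 1006 and 1065 in mTert, higher without overlap at 0.19 (SE 0.12). Ero1a, the oxidase that supplies those isomerases, gave 585 and 704 against 783 and 682, with overlap at 0.19 (SE 0.16). Mitochondrial chaperones and proteases had 8 of 10 higher, with a median of 0.073. Clpx and Clpp, the unfoldase and the peptidase of one mitochondrial protease, stood at 0.35 (SE 0.21) and 0.17 (SE 0.11). Clpp gave 1206 and 1205 against 1386 and 1333, and Clpx gave 165 and 220 against 235 and 252, each apart between groups. Each of these values had a limma adjusted p of 1.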

How the data were processed

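Chaperone transcripts were read from 4 arrays, grouped and numbered by the sample titles. The authors deposited 1 linear intensity per probe set and array with a present, marginal or absent call, and the detection p-value behind each call, per the file headers. Intensities in the series table equalled these on every array (largest difference 0). For the software behind them, the sources used here give no name. Trimmed means were nearly equal on the 4 arrays as deposited, so a change in total RNA could not show.

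Each array was scaled to a trimmed mean of 498.343 (2% of probe sets trimmed at each end), and log2 values were taken. The 64 control probe sets, and probe sets called present on fewer than 2 arrays, were left out. The remaining 12396 were fitted with limma 3.58.1 in R 4.3.3 (lmFit, eBayes with trend = TRUE, 4.13 prior degrees of freedom), with Benjamini-Hochberg adjustment over all of them. The fit was tested on simulated data. Symbols came from the platform annotation, which gave 1 symbol for 20380 probe sets, several for 691 and none for 1555. Promoters were those of RefSeq on GRCm38.p6, and the 12 chaperone genes without a window were left out of the motif counts.

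Genes were named by rule: all tested heat-inducible and endoplasmic reticulum stress members, the 3 smallest p-values of each family and compartment, the 5 brightest members, and the 2 smallest p-values of each further list. The members and lists were chosen with earlier results of these data known. Alternatives covered scaling, the filter on calls, an offset of 50, the variance model, the replicate number as a block, single arrays left out and the probe sets of a gene. With 2 arrays a group, their number limits the precision.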

Additional observations from a re-analysis of the deposited data

How the results depend on the processing

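No chaperone gene was called by limma under any setting. With the replicate block 18 of all probe sets passed, against 0 without it, none of them a chaperone; the smallest chaperone adjusted p was then 0.228, for Dnajb1. The labels do not pair the arrays by number (correlation of the 2 differences between numbers 0.373), and the block changed no chaperone call. Dnajb1, Hspa5 and Bag3 were lower in mTert under every setting run. Their groups did not overlap, so leaving out 1 array could not have turned the sign. Medians of groups moved more. With a gene's probe sets averaged, they were -0.051 for the mitochondrion and 0.121 for small heat shock proteins. Within arrays numbered 1 alone, a comparison chosen after seeing the data, they were -0.100 for endoplasmic reticulum stress members, -0.067 for cytosol and nucleus, 0.011 for the mitochondrion, 0.169 for DnaJ class A, 0.132 for class C and -0.034 for small heat shock proteins. Within arrays numbered 2 alone, chosen likewise, they were -0.006 for heat-inducible members, -0.118 for the endoplasmic reticulum, 0.114 for the mitochondrion and -0.066 for class C. Leaving out 1 array at a time gave medians from -0.157 to -0.013 for heat-inducible members, from -0.153 to -0.105 for endoplasmic reticulum stress members, from -0.110 to 0.000 for endoplasmic reticulum, from 0.033 to 0.077 for mitochondrion, from -0.112 to 0.191 for other or unplaced genes, from -0.058 to 0.172 for DnaJ class A, from -0.102 to 0.000 for DnaJ class B, from -0.050 to 0.058 for DnaJ class C, from -0.164 to 0.035 for HSP70, from 0.003 to 0.132 for small heat shock proteins and from -0.106 to 0.086 for BAG genes. Signs of small differences turned for Dnaja2 (-0.06), Hspa9 (-0.07) and Hspb1 (0.27) with probe sets averaged and for Hsp90aa1 (0.01) with quantile normalization. Hspa4l stood at -0.12 with no filter on calls, where a brighter probe set called absent stands for the gene. With 1 array left out, values ran from -0.01 to 0.08 for Bag2, from -0.11 to 0.17 for Dnaja2, from 0.00 to 0.13 for Dnajc10, from -0.04 to 0.01 for Hsp90aa1, from -0.11 to 0.05 for Hsp90b1, from -0.61 to 0.25 for Hspa1b, from -0.10 to 0.02 for Hspa8, from -0.22 to 0.19 for Hspb1, from -0.05 to 0.32 for Hspb11, from -0.02 to 0.23 for Hspb7, from -0.14 to 0.04 for Hspb8, from -0.14 to 0.02 for Hspd1 and from -0.19 to 0.03 for Hsph1. Otherwise the cause of these shifts was not tested. With 2 arrays a group, differences of 0.27 (Dnajc14) to 0.36 (Hspa4l) still had 95% intervals that included 0.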
